A study of Homo sapiens with 6 samples.

Results

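The SPARC family of matricellular proteins was followed in IMR-90 cells, a human fetal lung fibroblast line, with and without induction of a hairpin against ZNF469, the gene of a large zinc finger protein. Its members were taken by name, as the 8 genes SPARC, SPARCL1, SPOCK1, SPOCK2, SPOCK3, SMOC1, SMOC2 and FSTL1, and all 8 were among the 23754 features of the count table. RNA had been sequenced after poly(A) selection in 6 libraries of one transduced line, which carried the Tet-pLKO-puro lentiviral vector with the sh-2 hairpin and was kept under puromycin. The 3 DOX- libraries came from cells without doxycycline, which the labels name Control and call wild-type in genotype although the methods describe the same transduced line. The 3 DOX+ libraries, labelled Sh-ZNF469, came from cells given 2 µg/mL doxycycline for 4 days. The hairpin and doxycycline itself therefore cannot be told apart, and libraries of only 1 hairpin are analysed here. The series describes the 3 libraries of a group as technical replicates, so every p-value below measures only the spread between these libraries.

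Matricellular proteins are secreted into the matrix but do not build its fibres, and instead modulate how cells, collagens and growth factors meet. SPARC family proteins share a follistatin-like domain and an extracellular calcium-binding domain. SPARC itself, also called osteonectin, binds fibrillar and basement membrane collagens and assists procollagen processing and deposition, which is why it is followed in lung fibrosis together with collagen I. SPARCL1 (hevin) is its closest relative. The SPOCK genes encode testicans, which are proteoglycans, the SMOC proteins modulate BMP signalling, and FSTL1 is a secreted glycoprotein that binds BMP4 and is required for lung development.

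In GRCh38 with GENCODE 44, SPARC (ENSG00000113140) lies on the minus strand of chr5:151661096-151686975 and FSTL1 (ENSG00000163430) on the minus strand of chr3:120392293-120451016. SPOCK1 (ENSG00000152377) lies on the minus strand of chr5:136975298-137598379 and SMOC1 (ENSG00000198732) on the plus strand of chr14:69854131-70032366. The other members are SPARCL1 (chr4:87473335-87531061), SPOCK2 (chr10:72059034-72089032) and SPOCK3 (chr4:166733384-167234796), all on the minus strand, and SMOC2 (chr6:168441151-168673445) on the plus strand. The DNA just upstream of the first exon is shown for SPARC and FSTL1, because these were the members whose RNA was called lower in DOX+. Both stretches are from RefSeq promoter windows of GRCh38.p14, are written 5′ to 3′ on the gene's own minus strand, and end at the base before the GENCODE start, upstream of the RefSeq start as well. Capitals mark the letters GGAGG on either strand, a motif that was chosen after the sequences were seen. The reverse complement of this motif reads CCTCC. SPARC is shown over chr5:151686976-151687165 and FSTL1 over chr3:120451017-120451242.
SPARC: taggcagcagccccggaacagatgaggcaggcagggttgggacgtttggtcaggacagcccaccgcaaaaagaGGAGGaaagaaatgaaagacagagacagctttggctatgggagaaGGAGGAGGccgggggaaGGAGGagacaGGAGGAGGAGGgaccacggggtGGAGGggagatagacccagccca
FSTL1: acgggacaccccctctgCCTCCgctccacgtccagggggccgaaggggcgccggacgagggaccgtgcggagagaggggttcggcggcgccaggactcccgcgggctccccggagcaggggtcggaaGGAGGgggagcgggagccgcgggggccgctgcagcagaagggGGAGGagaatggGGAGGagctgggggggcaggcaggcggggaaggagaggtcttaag
The whole windows of 300 bases run on past the annotated start. They held 9 matches to GGAGG on either strand, overlaps included, for SPARC and 7 for FSTL1. The stretches shown hold 8 of these for SPARC and 4 for FSTL1. At least 9 matches were found in 1.59% and at least 7 in 4.15% of 35116 RefSeq promoter windows, and 77.4% held 1 or more. SMOC2, with 8 matches, and 1 of the SPOCK3 windows, with 7, reached the number of FSTL1 but not that of SPARC. Both genes had 0 counts in all libraries and were not tested. Neither window held TATAAA, the letters of a TATA box, on either strand, as 11.5% of all windows did. Neither held CCAAT, which 34.6% of windows did. GGGCGG, the core of a GC box, was found once in FSTL1 and not in SPARC, and in 45% of all windows. SPARC had 11 CpG dinucleotides in its window and FSTL1 30, against a median of 14 over all windows. The matches describe letters only, and binding to them was not measured in these libraries. Windows were found for 7 of the 8 members, all but SPOCK1.

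Library totals ran from 34057675 to 36120260 counts, so 3 counts, taken as the lowest level told from absence, corresponded to 0.0831 to 0.0881 CPM by the library total alone. All other CPM values, which are counts scaled to a common library size, also include a TMM factor of 0.988 to 1.01. The ratios of CPM to FPKM given at the end are an exception and use the library total alone. ZNF469, the targeted gene, was 118.7 ± 7.25 CPM in DOX- and 80.1 ± 0.488 CPM in DOX+ (SD, n = 3 each), a log2 fold change of -0.57 ± 0.0477 (SE; adjusted p = 3.31e-05, edgeR). Fibroblast markers were present, at a summed 36850 to 37970 CPM in DOX- and 27480 to 28370 CPM in DOX+. Of the 10, 5 were called lower, against 0.715% of all features tested. They were COL1A1, COL1A2, COL3A1, DCN and LUM, the last at an adjusted p of 0.0499 (edgeR). The 3 collagens among these also stand in the list of collagens that SPARC binds. The other 5 markers, among them VIM, THY1 and PDGFRA, were not called. Markers of other cells showed no called gene among 3 endothelial, 2 epithelial, 1 immune and 7 mural cell markers tested. The summed endothelial level was 21.2 to 24.9 CPM in DOX- and 21.7 to 24.9 CPM in DOX+, nearly all of it TEK, and PECAM1 and CDH5 had 0 counts. The mural sum was 1049 to 1122 CPM in DOX- and 1040 to 1103 CPM in DOX+. The epithelial sum stayed between 1.51 and 2.45 CPM over all libraries, and the immune sum, nearly all CD68, between 59.1 and 66.8 CPM. On the first principal component, 23.9% of the variance, the second DOX+ library stood at 32.8 and the other 5 between -12.6 and 0.524. SPARC and FSTL1 were also called lower without it.

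Expression in this line was carried by SPARC and FSTL1, with traces of SPOCK1 and SMOC1. By FPKM, the authors' value per transcript length, SPARC reached 1018 ± 31.6 in DOX- and 687.8 ± 2.83 in DOX+ (SD, n = 3 each), rank 34 to 37 and then 62 to 63 among all features of a library. FSTL1 followed at 315.6 ± 11.6 and 293.0 ± 8.94 FPKM. SPOCK1 was at 2.13 ± 0.244 and 2.57 ± 0.19 FPKM, and SMOC1 at 0.536 ± 0.114 and 0.517 ± 0.161 FPKM. The order SPARC, FSTL1, SPOCK1, SMOC1 was the same in each of the 6 libraries, and neighbouring levels did not overlap. SPARCL1 gave 1 count in all, in the second DOX- library. SPOCK2 gave 0, 3 and 2 counts in DOX- and 0, 0 and 2 in DOX+. SPOCK3 and SMOC2 gave 0 counts in all 6 libraries, so these 4 genes were at or under the floor of 3 counts in each library and a difference between the groups was not detectable at this depth.

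**Figure D1:**
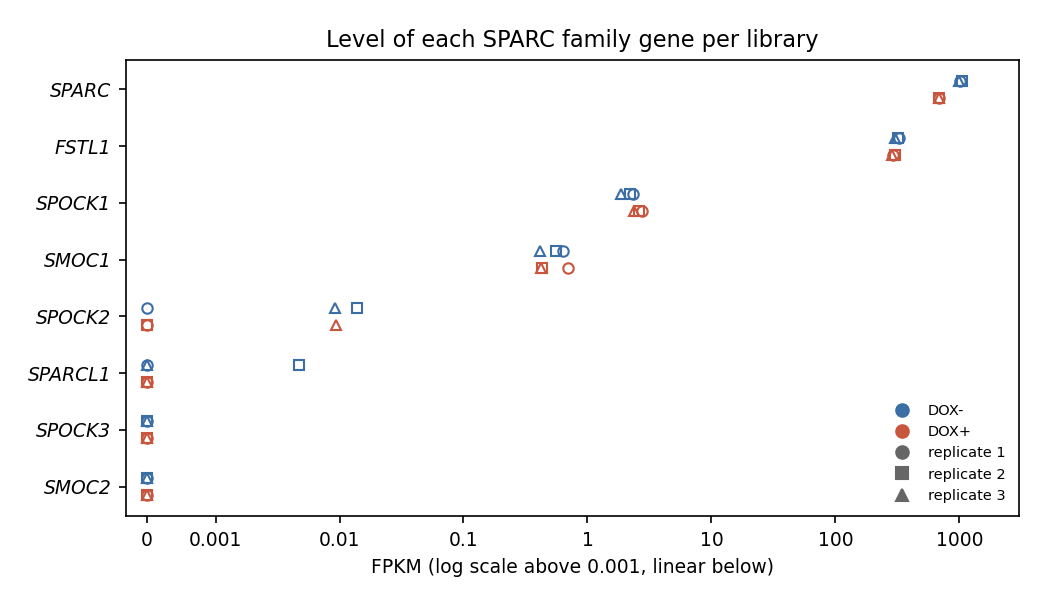
FPKM of the 8 SPARC family genes in each library on an axis that is logarithmic above 0.001 and linear below. Blue symbols are DOX- and red symbols DOX+ libraries, and shapes mark replicates 1 to 3. SPARC lies above FSTL1, FSTL1 above SPOCK1 and SPOCK1 above SMOC1 in all 6 libraries, and SPARCL1, SPOCK2, SPOCK3 and SMOC2 are at or near 0.

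SPARC RNA fell to 65.8% of its DOX- level. The counts were 141255, 150937 and 143103 in DOX- and 99150, 96361 and 100520 in DOX+. Scaled for library size, these were 4171, 4291 and 4103 CPM in DOX- and 2779, 2718 and 2776 CPM in DOX+. All 3 DOX+ libraries lay well below all 3 DOX- libraries, and the spread within a group was small, with a coefficient of variation of 2.27% in DOX- and 1.24% in DOX+. The log2 fold change was -0.60 ± 0.021 (SE), with a 95% interval from -0.65 to -0.56 and an adjusted p of 2.15e-09 by edgeR's quasi-likelihood test. An exact two-sided permutation test over the libraries gave p = 0.1, the smallest that 3 against 3 allow. Of 13991 features tested, SPARC had the third smallest p, and 13 called features fell more. In bulk RNA, fewer cells with a transcript and less of it per cell cannot be told apart. An antisense long noncoding RNA, CLMAT3, shares 191 exonic bases with SPARC but has no row in the table, and the counting is not stated to use strand.

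FSTL1 RNA fell to 90.8% of its DOX- level. It had 71618, 73240 and 70399 counts in DOX- and 67127, 68308 and 66513 in DOX+, or 2115, 2082 and 2018 CPM and 1882, 1927 and 1837 CPM. The groups did not overlap, but the lowest DOX- and the highest DOX+ library were close. The log2 fold change was -0.14 ± 0.0254 (SE), with a 95% interval from -0.19 to -0.08 and an adjusted p of 0.0183 (edgeR). The exact permutation p was again 0.1. This call was not firm. Without DOX- replicate 1 the adjusted p was 0.143 and without DOX- replicate 2 it was 0.085, and without DOX+ replicate 1 or 3 it was 0.113 and 0.0603 (edgeR). It was also missed with scaling by library size alone, at an adjusted p of 0.0555 (edgeR), and with log2(FPKM + 1), at 0.33 (limma). FSTL1 shares exonic bases with BTNL12P on the other strand and with the microRNA gene MIR198 on its own, 316 and 62 bases respectively, neither of which has a row in the table.

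The testican gene SPOCK1 had 425, 413 and 355 counts in DOX- and 489, 480 and 451 in DOX+. At 12.55, 11.7 and 10.2 CPM against 13.7, 13.5 and 12.45 CPM the groups overlapped, since DOX- replicate 1 lay just above DOX+ replicate 3. The log2 fold change of 0.20 ± 0.101 (SE) did not pass the test (adjusted p = 0.366, edgeR), and its 95% interval ran from -0.01 to 0.42. SMOC1 had 70, 74 and 55 counts in DOX- and 65, 60 and 54 in DOX+. Its 2.07, 2.10 and 1.58 CPM against 1.82, 1.69 and 1.49 CPM overlapped, and the log2 fold change was -0.20 ± 0.217 (SE; adjusted p = 0.717, edgeR). With a 95% interval from -0.67 to 0.27, a change of SMOC1 as large as that of SPARC was within the error.

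**Figure D2:**
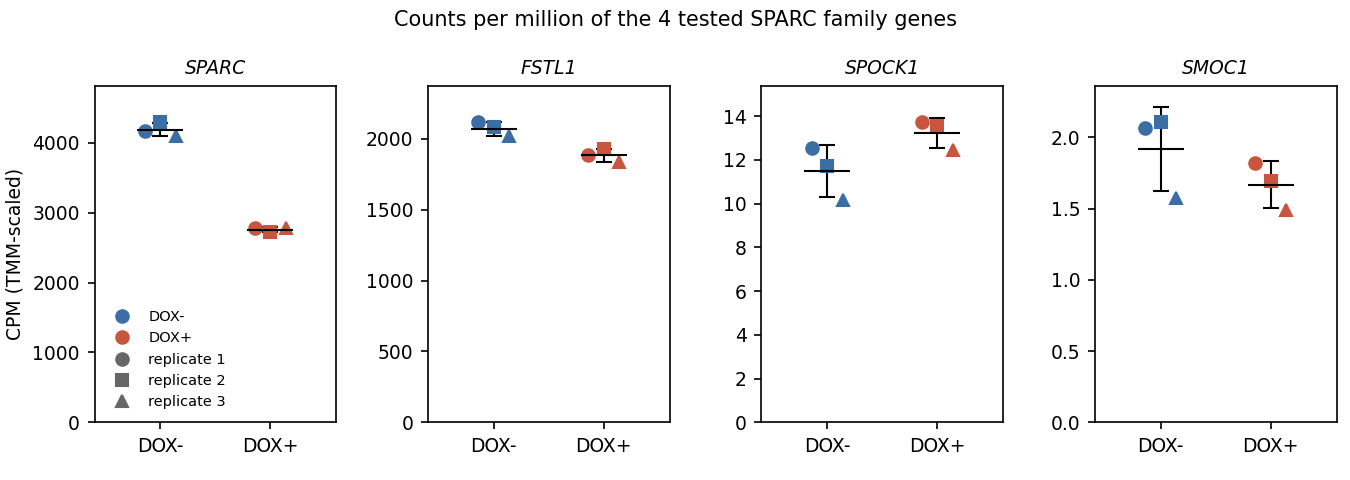
CPM of SPARC, FSTL1, SPOCK1 and SMOC1 in each library, on linear axes that start at 0 and differ between panels. Symbols mark replicates 1 to 3, and horizontal lines with bars give mean and SD of DOX- (blue) and DOX+ (red). SPARC is clearly separated, FSTL1 narrowly, and SPOCK1 and SMOC1 overlap.

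Of the 8 members, 4 passed the filter on low counts, and of these 2 were called lower and 0 higher at an FDR of 0.05 (edgeR). Over all features tested, 0.715% were called lower and 0.4% higher. At an unadjusted p under 0.05, where 7.69% of features were lower and 7.31% higher, there were also 2 members lower and 0 higher. Limma-voom called 0 higher as well. No DESeq2 adjusted p was available for SPOCK1, the only tested member with a positive change, or for SMOC1. The 0 higher by DESeq2 therefore says nothing about SPOCK1. CPM did not overlap between groups, with DOX+ lower, for 2 members, SPARC and FSTL1, as for 10.6% of all features. No member was higher without overlap, against 9.73% of features.

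The summed family level was 6300, 6387 and 6133 CPM in DOX- and 4677, 4660 and 4626 CPM in DOX+. SPARC made up 66.8% ± 0.504 of the family's counts in DOX- and 59.2% ± 0.85 in DOX+ (SD, n = 3 each), and the FSTL1 share was 33.0% ± 0.493 and 40.4% ± 0.84. Per transcript length, SPARC was 76.2% ± 0.494 of the summed family FPKM in DOX- and 69.9% ± 0.72 in DOX+. SPARC thus remained the most abundant member in each library.

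**Figure D3:**
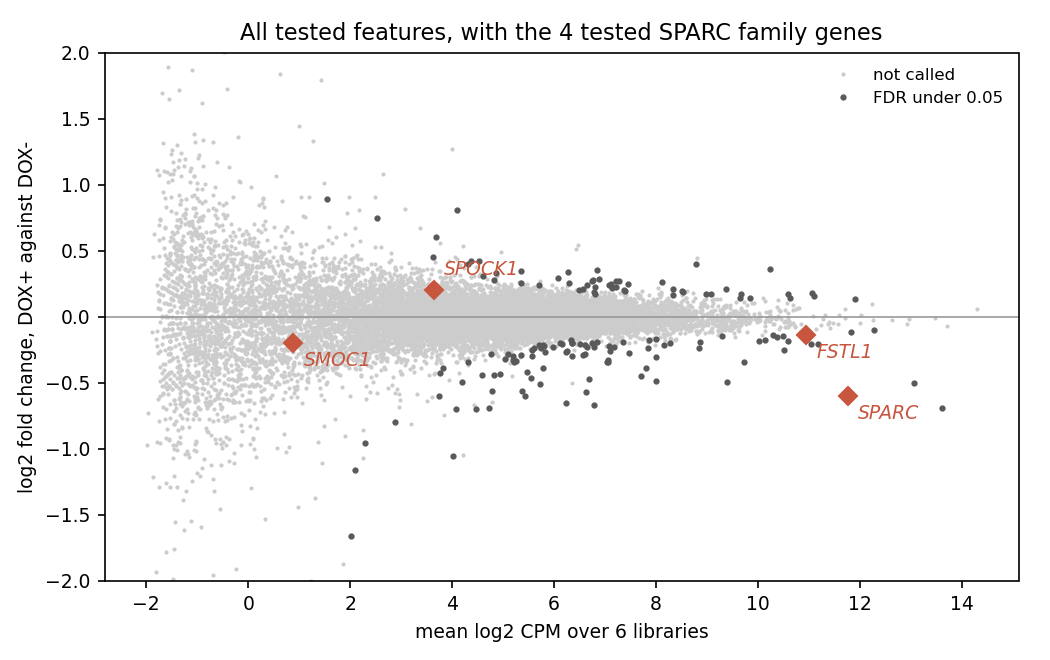
Log2 fold change (DOX+ minus DOX-) of each of the 13991 features tested against its mean log2 CPM, with called features in dark grey and the 4 tested family members as red diamonds. SPARC and FSTL1 lie among the abundant features with negative values, SPOCK1 and SMOC1 within the cloud, and 17 features beyond ±2 are not drawn.

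Ratios within a library do not depend on library scaling, and 6 were formed with SPARC as numerator, given as log2 of the count ratio. SPARC over FSTL1 was 0.98, 1.04 and 1.02 in DOX- and 0.56, 0.50 and 0.60 in DOX+, a difference of -0.46 ± 0.0347 (SE). SPARC over SPOCK1 was 8.38, 8.51 and 8.65 in DOX- and 7.66, 7.65 and 7.80 in DOX+, a difference of -0.81 ± 0.0937 (SE). SPARC over SMOC1 differed by -0.41 ± 0.147 (SE). In these 3 ratios the groups did not overlap, each with an exact permutation p of 0.1 and 0.12 after adjustment over the 6. With 3 libraries against 3 no ratio could pass 0.05.

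Against the collagens the ratios moved far less. SPARC over COL1A1 was -1.91, -1.81 and -1.95 in DOX- and -1.82, -1.77 and -1.81 in DOX+, a difference of 0.09 ± 0.0428 (SE). Here the groups overlapped (exact permutation p = 0.3, adjusted 0.3). SPARC over COL1A2 differed by -0.10 ± 0.0262 and SPARC over COL3A1 by -0.11 ± 0.0379 (SE), without overlap (exact permutation p = 0.1 each, adjusted 0.12). SPARC thus fell by more than COL1A2 and COL3A1 in value, a difference that a permutation of 6 libraries cannot bring past the threshold.

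**Figure D4:**
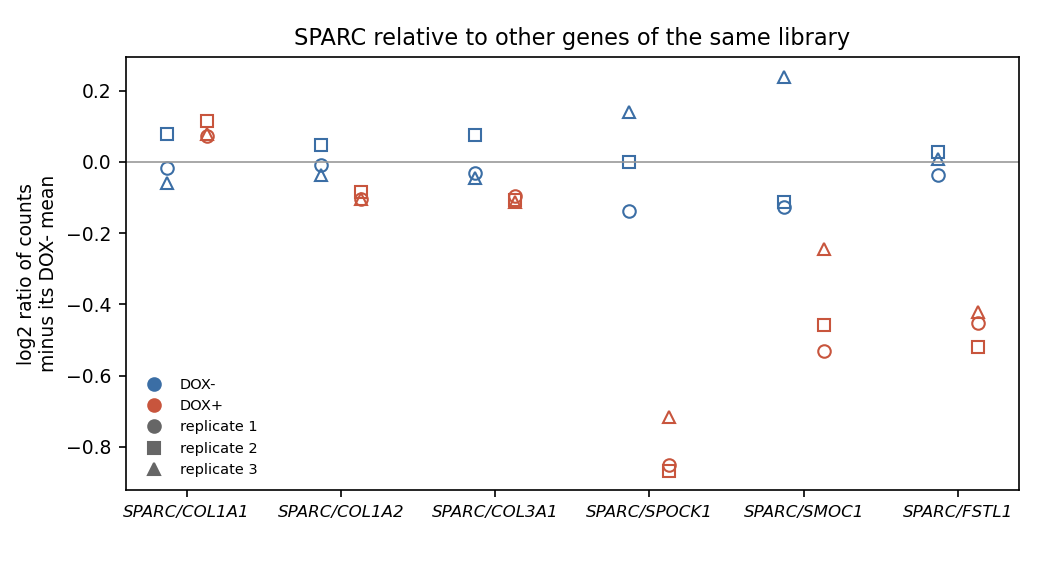
Log2 of the count ratio of SPARC to each of 6 genes in the 6 libraries, minus the DOX- mean of that ratio. Blue symbols are DOX- and red symbols DOX+ libraries, and shapes mark replicates. The ratios to FSTL1, SPOCK1 and SMOC1 are lower in DOX+ without overlap, and the ratio to COL1A1 overlaps.

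The collagens that SPARC binds were the list with the most called genes among those examined around the family. Of 9 genes 8 were tested, and 5 were called lower and 0 higher, against 0.715% and 0.4% of all features. There were 0 higher also at an unadjusted p under 0.05 and by DESeq2 and limma-voom. The median log2 fold change was -0.24, against -0.0019 over all features tested. COL1A1, the major chain of collagen I, fell from 15509 ± 401 to 9610 ± 277 CPM, a log2 fold change of -0.69 ± 0.0217 (SE; adjusted p = 1.66e-09, edgeR). COL1A2, its partner chain, fell from 10083 ± 78.3 to 7107 ± 147 CPM, by 0.50 on the log2 scale. COL3A1 fell from 784 ± 18.5 to 556 ± 7.33 CPM (log2 fold change -0.50), and COL5A2 from 945 ± 19.8 to 747 ± 6.36 CPM (-0.34). With FPKM in place of counts COL5A2 missed the threshold (adjusted p up to 0.207, limma). COL4A1, a basement membrane chain named here after its values were seen, had 2045 ± 32.3 and 1863 ± 7.01 CPM (log2 fold change -0.13, adjusted p = 0.00643, edgeR). The COL4A1 call was lost without DOX- replicate 1 (adjusted p = 0.0855) or DOX+ replicate 1 (0.0641, edgeR). COL5A1, COL4A2 and COL5A3 were not called, at log2 fold changes of -0.05, -0.02 and 0.03, and COL2A1 had 0 counts.

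Matricellular genes outside the family showed no called gene in the direction of SPARC. Of 19 genes 14 were tested, 0 were called lower and 4 higher, against 0.715% and 0.4% of all features. The median log2 fold change was 0.04. At an unadjusted p under 0.05 there was 1 lower, CCN1 (log2 fold change -0.10), which DESeq2 called and limma-voom did not. POSTN, the gene of periostin, rose from 10.1 ± 0.401 to 15.4 ± 1.24 CPM, a log2 fold change of 0.60 ± 0.0935 (SE; adjusted p = 0.00595, edgeR). TGFBI, a collagen-binding matrix protein induced by TGF-β, rose from 1990 ± 27.0 to 2256 ± 31.5 CPM (log2 fold change 0.18, adjusted p = 8.37e-04, edgeR). THBS1, an activator of latent TGF-β, had 2082 ± 65.5 and 2321 ± 23.6 CPM (0.16, adjusted p = 0.00629, edgeR). TNC, the gene of tenascin-C, had 760 ± 19.6 and 841 ± 20.7 CPM (0.15, adjusted p = 0.0376, edgeR). The THBS1 call was lost without replicate 1 of DOX- (adjusted p = 0.0602) or of DOX+ (0.0595), and the TNC call on leaving out any library but DOX+ replicate 2, at adjusted p up to 0.172 (edgeR). With FPKM in place of counts POSTN also missed the threshold (adjusted p up to 0.0668, limma). CCN2 was at 1193 ± 5.43 and 1201 ± 16.6 CPM and was not called.

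**Figure D5:**
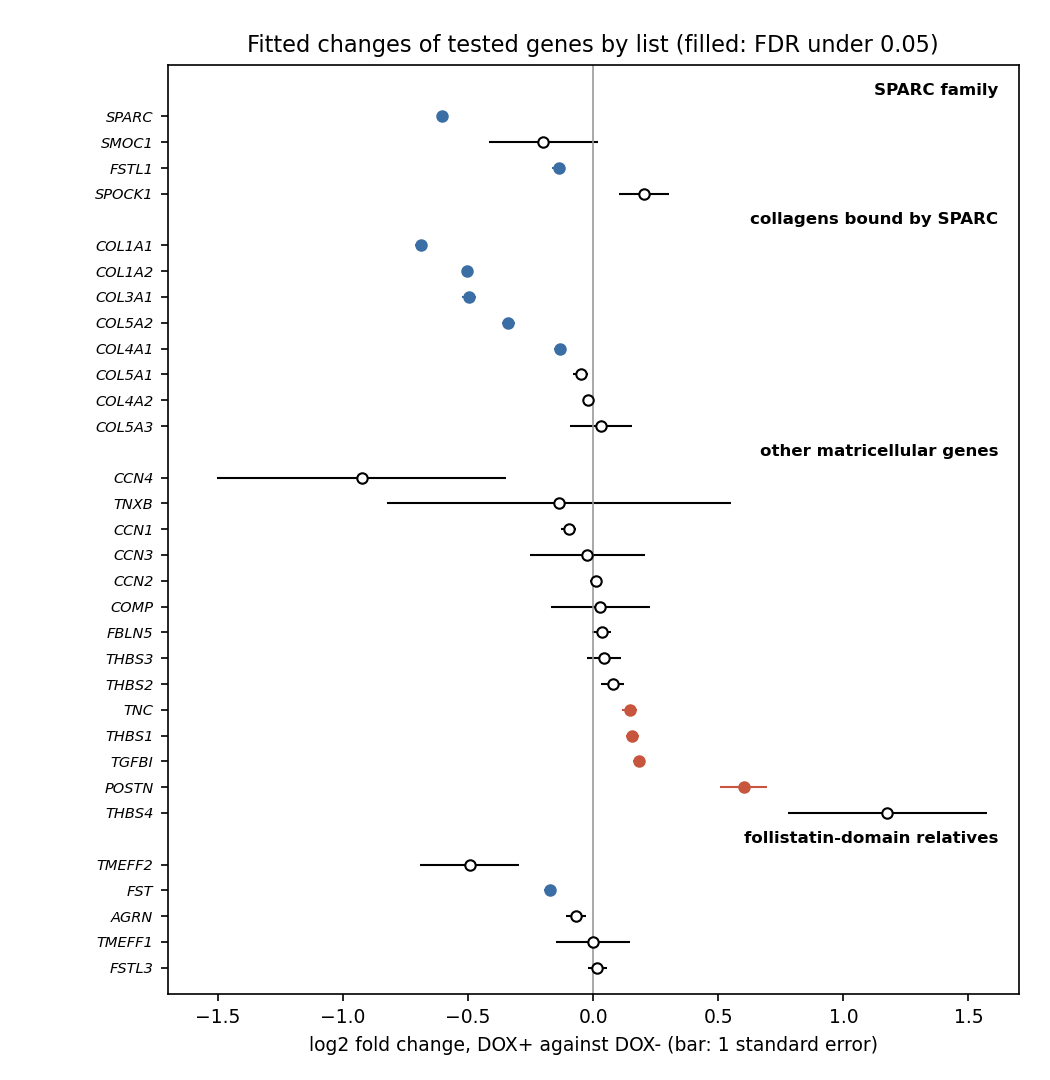
Log2 fold change (DOX+ minus DOX-) of each tested gene of the family, the collagens, other matricellular genes and follistatin-domain relatives. Filled symbols are genes called at an FDR of 0.05 (blue lower, red higher) and bars are 1 SE. In the family and in the collagen list the called genes lie below 0, and in the list of other matricellular genes the 4 called genes lie above 0.

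Among relatives that carry a follistatin domain without belonging to the family, 5 of 7 were tested. Of these, 1 was called lower and 0 higher, against 0.715% and 0.4% of all features. At an unadjusted p under 0.05, 2 were lower and 0 higher, against 7.69% and 7.31% of all features. DESeq2 and limma-voom also called 0 higher. FST, the gene of the activin inhibitor follistatin, fell from 1195 ± 17.3 to 1060 ± 6.40 CPM, a log2 fold change of -0.17 ± 0.0242 (SE; adjusted p = 0.00327, edgeR). With FPKM it missed the threshold (adjusted p up to 0.14, limma). TMEFF2, at 2.59 ± 0.197 and 1.84 ± 0.303 CPM, was lower without overlap but was not called (log2 fold change -0.49, adjusted p = 0.266, edgeR). FSTL3 (0.02) and AGRN (-0.07) were not called either.

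Of 27 receptors, growth factors and BMP pathway genes tied to the family, 22 were tested, 0 were called lower and 1 higher, with a median log2 fold change of 0.0049. Unadjusted, 1 was lower and 5 were higher at p under 0.05, where 7.69% of all features were lower and 7.31% higher. DESeq2 and limma-voom called 0 lower. The called gene was FGF2, a growth factor whose signalling SPARC can modulate, at 83.1 ± 3.43 CPM in DOX- and 95.4 ± 1.93 CPM in DOX+ (log2 fold change 0.20, adjusted p = 0.0493, edgeR). The FGF2 call was lost on leaving out any 1 of the 6 libraries, at adjusted p from 0.07 to 0.203 (edgeR). It was also lost with the GC trend removed, at a log2 fold change of 0.12 (adjusted p = 0.13, edgeR). ITGB1, an integrin chain that takes part in SPARC signalling, had 4638 ± 170 and 4950 ± 223 CPM with overlapping groups. Its log2 fold change of 0.09 was not called (adjusted p = 0.181, edgeR), though it was among the 5 higher at an unadjusted p under 0.05. Of the other integrin chains listed, ITGA5 and ITGB5 also overlapped. ITGAV (log2 fold change 0.22) and ITGB3 (0.15), also among those 5, were higher in DOX+ without overlap but were not called (adjusted p = 0.0587 and 0.184, edgeR). The scavenger receptors STAB1 and STAB2, of which the former takes up SPARC, were at most at 5 and 3 counts, and TLR4 at most at 2. BMP4, a ligand of FSTL1, was at 2.72 ± 0.678 and 2.67 ± 0.429 CPM.

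Of 15 proteases and crosslinking enzymes tied to the family, 11 were tested and 0 were called in either direction, with a median log2 fold change of -0.05. Unadjusted, 3 were lower and 1 higher at p under 0.05, against 7.69% and 7.31% of all features. The 3 lower were PLAT, MMP2 and CTSK (log2 fold change -0.10, -0.07 and -0.21), and the 1 higher was MMP1 (0.11). DESeq2 and limma-voom called 0 in either direction. MMP2, the gelatinase gene, was at 656 ± 3.41 and 625 ± 17.9 CPM without overlap. MMP14, its membrane-bound activator, was at 789 ± 19.1 and 769 ± 28.3 CPM with overlapping groups.

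The features whose centred log2 CPM over the 6 libraries were closest to SPARC, out of 11238 ranked, were ASNS, PEG10, COL1A2, COL1A1 and NUPR1. Their root mean square differences from SPARC ran from 0.039 to 0.0614 log2 units. ASNS, the asparagine synthetase gene, had a log2 fold change of -0.65, PEG10 of -0.60 and NUPR1 of -0.51. With FPKM in place of counts NUPR1 was at -0.21 and -0.20 and was not called (adjusted p up to 0.526, limma). Closest to FSTL1 were ZFP36L1, TRIM21, UCKL1, INPP4B and NARS, at differences from 0.0127 to 0.018, with log2 fold changes from -0.14 to -0.11. None of these 5 was called by edgeR, with adjusted p from 0.109 to 0.483. The likeness is over 6 libraries of 2 groups and describes mostly the group difference.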

How the data were processed

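RNA was measured in 6 libraries of IMR-90 cells, grouped by their titles into DOX- (Control) and DOX+ (Sh-ZNF469), 3 each. Per the submitters' processing notes, the authors used HISAT2, StringTie and the GRCh38 build. Tool versions, annotation release, counting step and strand setting are not given in the sources used here. The authors deposited a whole-number count and an FPKM value per feature and library. Of the 23754 features, 3780 had no Ensembl identifier, and 17 stray lines were dropped.

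Counts were tested with edgeR 4.0.16 in R 4.3.3 (filterByExpr with a minimum count of 10, TMM, quasi-likelihood test, no covariates), with Benjamini-Hochberg adjustment over 13991 features and an FDR of 0.05. CPM are TMM-scaled. The SE of a log2 fold change is its size divided by the root of F. Permutation tests were exact and two-sided. TMM factors were 0.988 to 1.01. The deposited FPKM gave levels across genes and an alternative test on log2(FPKM + 0.1) and log2(FPKM + 1) with limma 3.58.1. The test was tried on simulated data. Pairs of libraries of a group differed by more than sampling noise (chi-square over degrees of freedom 4.52 to 8.25), so none was a repeat deposit. GENCODE 44 gave coordinates and lengths, and RefSeq gave promoter windows, neither necessarily the authors' annotation.

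The members and gene lists were chosen with earlier results of these data known. Named genes are all members, ZNF469, the 3 ratio collagens, the called genes of each list (at most 4 per direction by p), and for each called member the 5 features of most similar pattern with a mean log2 CPM over 1. COL4A1 and the uncalled genes of the lists that are given as examples fall outside this rule and were chosen after their values were seen. The alternatives were other filters, scalings and thresholds, DESeq2 1.42.0, limma-voom, FPKM, removal of GC or length trends, a replicate block, and leaving out each library. The counts per gene list under these alternatives were added after seeing the data.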

Additional observations from a re-analysis of the deposited data

How the results depend on the processing

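SPARC was lower in DOX+ under all 21 alternatives (log2 fold change -0.62 to -0.57, without 1 library -0.62 to -0.58) and missed the call only when an absolute log2 fold change over 1 was required (-0.60). FSTL1 was lower under all 21 and kept its call under 12. It was lost with library size only (-0.12), log2(FPKM + 0.1) and log2(FPKM + 1) (-0.11 each), an FDR of 0.01 and the fold threshold (-0.14 each), and without 1 library ranged from -0.16 to -0.12. SPOCK1 (0.12 to 0.27) and SMOC1 (-0.32 to -0.02) kept direction and stayed uncalled under 20 of 20. DESeq2, which gave no adjusted p for either, is left out there. Members called lower were 1 with library size only, both FPKM tests or an FDR of 0.01, 0 with the fold threshold, and 1 to 2 without 1 library. Members called higher were 0 under all 21, where DESeq2 did not judge SPOCK1 or SMOC1.

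Over all features, 100 lower and 56 higher became 163 and 127 without the filter, 234 and 244 by DESeq2, 24 and 6 by either FPKM test, 54 and 19 at an FDR of 0.01, 4 and 2 with the fold threshold, and 162 and 127 with the GC trend removed. Library size only gave 88 higher. Without 1 library they were 54 to 92 lower and 20 to 69 higher.

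Collagens called lower were 3 by either FPKM test and 0 with the fold threshold. Other matricellular genes called higher were 1 by either FPKM test, 0 with the fold threshold and 2 to 4 without 1 library, and called lower 1 by DESeq2. Those called higher were 3 by DESeq2, which gave no adjusted p for POSTN, and 3 at an FDR of 0.01. They were also 3 with the length trend removed, where TNC was not called (adjusted p = 0.159, edgeR). FST was not called by either FPKM test or with the fold threshold (0 relatives). Receptors and ligands called higher were 2 without the filter or with library size only, 3 by DESeq2, and 0 by either FPKM test, at an FDR of 0.01, with the fold threshold or with the length trend removed, and 0 to 1 without 1 library. INPP4B turned direction with log2(FPKM + 0.1) (0.0029) and log2(FPKM + 1) (0.0039). The 6 SPARC ratios kept direction and side under all 7 alternatives each. The cause of these shifts was not tested.

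With the replicate number as a replicate block, 157 features were lower and 135 higher, 3 receptors and ligands were higher, and SPARC (-0.60) and FSTL1 (-0.14, adjusted p = 0.00403, edgeR) kept their calls. Over all tested features, libraries of the same number did not deviate together (correlations -0.0241, -0.0352 and 0.0363), and the numbers were not taken as pairs. These correlations take in features of low count, where counting noise is large, so they cannot exclude pairing. With the block the SE was 0.0182 against 0.021 for SPARC and 0.0167 against 0.0254 for FSTL1.

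Depth limits SPARCL1, SPOCK2, SPOCK3 and SMOC2, which were at or under 3 counts, and leaves wide intervals for SMOC1. The libraries are technical replicates of 1 line with 1 hairpin, and whether those of a group came from separate cultures is not stated. The floor of 3 counts covers counting error only.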

Other observations

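For SMOC1 the deposited units disagreed within a library. The first DOX+ library had 65 counts, within the range of the others, but the highest FPKM of SMOC1, 0.703. The ratio of CPM, here by library total alone, to FPKM reflects in kilobases the length that the FPKM was computed on. It was 2.61 in that library, 3.24, 3.73 and 3.78 in DOX- and 4.01 and 3.56 in the other DOX+ libraries. For SPARC this ratio was 4.02 to 4.11 and for FSTL1 6.44 to 6.58 over the 6 libraries. For SPOCK1 it was also lowest in the first DOX+ library, at 5.03 against 5.26 to 5.38 in the others. What sets the SMOC1 ratio was not tested.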
